A study of Mus musculus with 9 samples.

Results

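The 4 genes described here are Gng13, Gnb1 and Ric8b, which encode parts of the olfactory G protein machinery, and Omp, a reference gene of mature olfactory neurons. They were picked by gene symbol from the 55291 genes of the deposited count table, and Gng13 was chosen by its lower level in Ms4a6c knockout mice, so that comparison is given for the 4 genes as a description without a test. The values come from RNA-seq of the main olfactory epithelium, the odor-sensing tissue of the nose, of 9 untreated mice aged 8 to 12 weeks. There were 3 wild-type mice (C57BL/6), 3 Ms4a6c knockout mice (C57BL/6 Ms4a6c-/-) and 3 Ms4a cluster knockout mice (C57BL/6 Ms4a cluster-/-), each sequenced as a separate library. Ms4a genes encode membrane proteins that act as odor receptors in a small class of olfactory neurons, and the libraries were made to check gene expression in the knockout lines. The Ms4a6c line was made by homologous recombination and the Ms4a cluster line with CRISPR/Cas9, and the same 3 wild-type mice, described in the methods as littermate controls, served both lines. The sex of the mice was not given in the sources used here.

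In an olfactory sensory neuron, an odorant receptor activates a heterotrimeric G protein built from the alpha subunit Golf (Gnal), the beta subunit encoded by Gnb1 and the gamma subunit encoded by Gng13. Activated Golf turns on the adenylyl cyclase encoded by Adcy3, and the cyclic AMP it makes opens the channel that contains Cnga2. Ric8b protein binds Golf, promotes its nucleotide exchange and helps it to accumulate, and Omp encodes an abundant cytoplasmic protein of mature olfactory neurons. Gng13 is also known from taste receptor cells and from chemosensory tuft cells.

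Libraries held between 13954591 and 21987174 expected counts. Wild-type mouse 1 and Ms4a cluster knockout mouse 2 stood apart: the nasal gland transcripts Bpifb9a and Bpifb9b took 14.2% and 13.7% of their counts, against 0.0355% to 3.50% in the other 7 libraries, and values without these 2 gland-rich libraries are given where they bear on a result. Values are CPM, counts scaled to a common library total, after adjustment of the libraries by edgeR's TMM method. The labels were checked with Ms4a6c, on chromosome 19, which had 54.0, 90.3 and 81.5 expected counts in wild-type mice 1, 2 and 3, against 0, 2.35 and 2.0 in the Ms4a6c knockout mice and 0 in all 3 mice of the Ms4a cluster knockout. All 4 genes were among the 23225 genes tested, which had a total of 10 or more counts across the 9 mice. The neuronal transcript Omp ranked 26 among 23203 genes by level per kilobase of exon, Cnga2 102, Gnal 162 and Adcy3 165, so the defining neuronal markers of the labelled tissue were present.

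Gng13 (ENSMUSG00000025739.13) lies on chromosome 17, at chr17:25717171-25719406 on the plus strand of mouse build GRCm38, and its protein is short. The coding sequence, of 204 bases with 67 codons before the stop, begins in exon 2 and ends in exon 3. It is shown because it is the message that differed, and because its later part lies opposite another gene. Capitals mark the 106 coding bases that exons of Chtf18, a gene of the minus strand, overlap (GENCODE M21 annotation, GRCm38, chr17:25718701-25719032 with the intron removed).

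Gng13 coding sequence: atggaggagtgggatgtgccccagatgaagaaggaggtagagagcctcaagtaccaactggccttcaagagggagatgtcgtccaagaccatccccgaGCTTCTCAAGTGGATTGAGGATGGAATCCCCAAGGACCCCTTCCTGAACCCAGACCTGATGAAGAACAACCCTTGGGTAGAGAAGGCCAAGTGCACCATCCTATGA

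The 300 bases around the upstream start of Gng13 in RefSeq (GRCm38.p6, chr17:25716922-25717221, plus strand, from 250 bases before the start to 50 after it) are shown with capitals marking the letters CCCNNGGGA read on either strand, the core of the site bound by Ebf factors, which are known regulators of olfactory neuron genes.

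Gng13 promoter: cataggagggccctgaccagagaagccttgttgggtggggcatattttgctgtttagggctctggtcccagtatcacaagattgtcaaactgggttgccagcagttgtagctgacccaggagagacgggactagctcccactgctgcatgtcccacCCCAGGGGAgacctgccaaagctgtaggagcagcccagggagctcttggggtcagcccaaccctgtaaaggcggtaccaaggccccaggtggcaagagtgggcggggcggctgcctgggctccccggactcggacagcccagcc

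This window held 1 match, CCCAGGGGA, which began 94 bases before the start (position -94). The window at a second Gng13 start and the Gnb1 and Ric8b windows held 0 matches, and 6.557% of 32851 RefSeq promoter windows held at least 1. The letters TAATTA, a core of homeodomain sites such as those of Lhx2, were found in 0 of these 4 windows and in 5.291% of all windows. A match is a run of letters, not a measured binding site.

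Gng13 was lower in every Ms4a6c knockout mouse than in any wild-type mouse, whereas its beta partner, the exchange factor and the neuronal reference were not. In wild-type mice 1, 2 and 3, Gng13 was at 347.5, 371.1 and 358.7 CPM. In Ms4a6c knockout mice it was at 178.8, 197.7 and 203.1 CPM, and in Ms4a cluster knockout mice at 420.7, 331.6 and 367.3 CPM. The Ms4a6c knockout values lay below all 6 others, while the wild-type and Ms4a cluster knockout values overlapped, with the gland-rich Ms4a cluster knockout mouse lowest of its group. Mean Gng13 levels were 359.1 ± 11.8 CPM in wild-type mice (n = 3, SD), 193.2 ± 12.8 CPM in Ms4a6c knockout mice (n = 3, SD) and 373.2 ± 44.8 CPM in Ms4a cluster knockout mice (n = 3, SD). Against wild-type mice, the fitted log2 fold change in Ms4a6c knockout mice was -0.89 with a standard error of 0.091, a fold of 0.538, or -46.2%. Since Gng13 was selected on this contrast, no test is attached to it. Over all tested genes, 0.435% had an adjusted p under 0.05 in this contrast by the quasi-likelihood test of edgeR, adjusted by Benjamini-Hochberg over all tested genes, and in 18.3% the 3 knockout mice did not overlap with the 3 wild-type mice. Without the 2 gland-rich libraries the Gng13 log2 fold change was -0.92.

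Loss of Ms4a6c together with the rest of the Ms4a cluster was not accompanied by a detectable difference in Gng13. Relative to wild-type mice, the log2 fold change of Gng13 in the Ms4a cluster knockout was 0.06 with a standard error of 0.09 (edgeR adjusted p = 0.999), and the 95% interval of the fold ran from 0.905 to 1.19. This comparison shares its wild-type mice with the one that selected Gng13. Across all tested genes, 0.0258% were called in this contrast and 9.86% had mice that did not overlap. The fitted Gng13 difference between the knockouts, Ms4a cluster minus Ms4a6c, was 0.95 on the log2 scale with a standard error of 0.091, given as a description because the Ms4a6c knockout values took part in the choice.

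**Figure D1:**
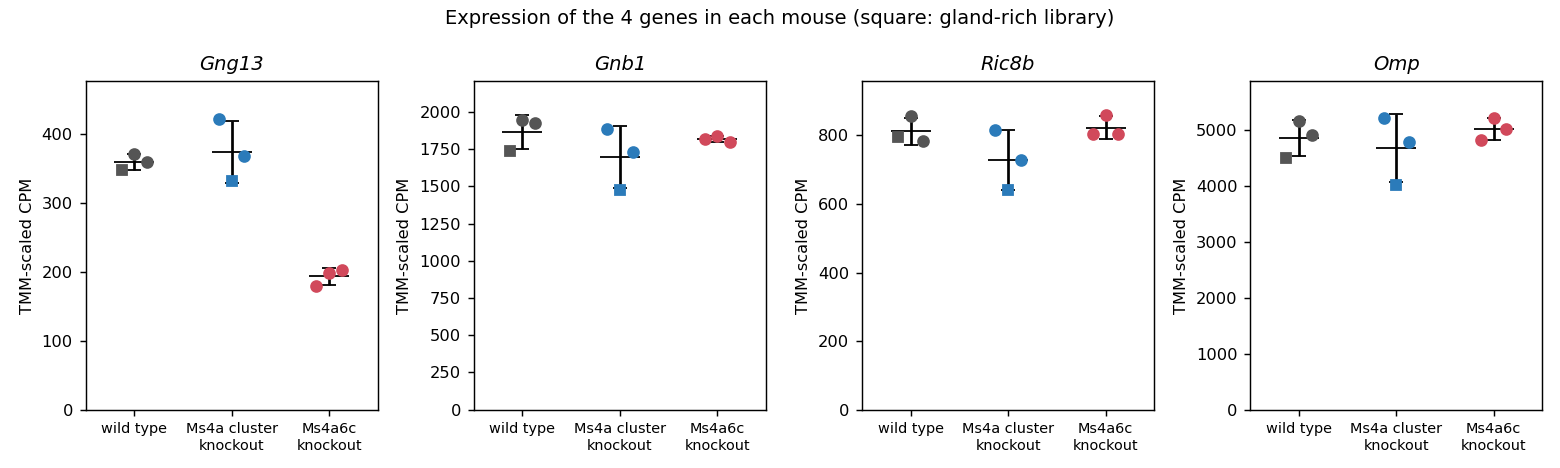
TMM-scaled CPM (vertical axes from 0) of Gng13, Gnb1, Ric8b and Omp in each of the 9 mice by genotype, with the group mean and SD in black and gland-rich libraries as squares. The 3 Ms4a6c knockout values of Gng13, 178.8 to 203.1 CPM, sit below all others, while the genotypes overlap for the other 3 genes.

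Gnb1 encodes the beta subunit that pairs with the Gng13 product, and it lies at chr4:155491361-155559269 on the plus strand. Wild-type mice 1, 2 and 3 had 1736, 1942 and 1923 CPM of Gnb1. Ms4a6c knockout mice had 1819, 1839 and 1795 CPM, and Ms4a cluster knockout mice 1886, 1473 and 1729 CPM. The lowest Gnb1 values of the wild-type and Ms4a cluster knockout groups were those of the gland-rich libraries, and the 3 genotypes overlapped. Gnb1 averaged 1867 ± 113.6 CPM in wild-type mice (n = 3, SD), and the log2 fold change in Ms4a6c knockout mice was -0.04 with a standard error of 0.11 and a 95% interval of the fold from 0.819 to 1.16. In Ms4a cluster knockout mice it was -0.14 with a standard error of 0.11 (edgeR adjusted p = 0.971), with an interval from 0.764 to 1.08.

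Ric8b, the exchange factor and chaperone of Golf, lies at chr10:84917616-85018337 on the plus strand. In wild-type mice 1, 2 and 3 it was at 794.4, 857.6 and 783.8 CPM. In Ms4a6c knockout mice the Ric8b values were 803.3, 860.6 and 805.5 CPM, and in Ms4a cluster knockout mice 815.2, 642.2 and 727.4 CPM. Ric8b was lowest in the gland-rich Ms4a cluster knockout mouse, and both knockouts overlapped with wild type. The Ric8b log2 fold change was 0.02 with a standard error of 0.10 in Ms4a6c knockout mice, with a 95% interval of the fold from 0.869 to 1.18. In Ms4a cluster knockout mice it was -0.16 with a standard error of 0.10 (edgeR adjusted p = 0.971), with an interval from 0.769 to 1.05.

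Omp, at chr7:98143359-98145502 on the minus strand, served as the neuronal reference. It was at 4501, 5152 and 4915 CPM in wild-type mice 1, 2 and 3. Ms4a6c knockout mice had 4824, 5212 and 5019 CPM of Omp, and Ms4a cluster knockout mice 5215, 4018 and 4778 CPM. The groups overlapped, with the gland-rich libraries again lowest in the wild-type and Ms4a cluster knockout groups. The Omp log2 fold change was 0.05 with a standard error of 0.13 in Ms4a6c knockout mice, with a 95% interval of the fold from 0.851 to 1.26. It was -0.06 with a standard error of 0.13 in Ms4a cluster knockout mice (edgeR adjusted p = 0.9995), with an interval from 0.792 to 1.17.

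Part of the likeness between the partners and the reference across mice rested on the gland-rich libraries. Pearson's r of the log2 levels over the 9 mice, which share library preparation and scaling, was 0.89 for Gnb1 with Ric8b, 0.91 for Gnb1 with Omp and 0.88 for Ric8b with Omp. Over the 7 mice without the gland-rich libraries these values were 0.63, 0.55 and 0.82 in the same order. For Gng13, r over all 9 mice was -0.02 to Gnb1, -0.27 to Ric8b and -0.16 to Omp. Over the 7 mice these were 0.36, -0.27 and 0.11. These values include the group difference by which Gng13 was chosen, so they are given as a description. After each group's mean was removed, r of Gng13 was 0.81 to Gnb1, 0.86 to Ric8b and 0.90 to Omp over the 9 mice, and 0.64, 0.69 and 0.87 over the 7. The deviations within a group are not independent, so these r values rest on fewer free values than mice. In whole tissue a lower level of a transcript can come from fewer cells that hold it or from less of it in each cell, and these cannot be told apart here.

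Levels of different genes were compared per kilobase of exon, with the length taken over all annotated exons of a gene, whichever isoforms were expressed. In wild-type mice Omp was the highest of the 4 at 2265 ± 153.7 CPM per kilobase (n = 3, SD). Gng13 and Gnb1 followed at 464.5 ± 15.3 and 437.4 ± 26.6 CPM per kilobase (n = 3 each, SD), and these neighbors in the order overlapped between mice. Ric8b was lowest at 154.0 ± 7.57 CPM per kilobase (n = 3, SD). In Ms4a6c knockout mice the Gng13 level of 249.9 ± 16.5 CPM per kilobase (n = 3, SD) stood below the Gnb1 level of 425.9 ± 5.20 (n = 3, SD) and above the Ric8b level of 156.1 ± 6.17 (n = 3, SD). The order in Ms4a cluster knockout mice was that of wild-type mice, with Gng13 at 482.8 ± 58.0 and Gnb1 at 397.3 ± 48.8 CPM per kilobase (n = 3 each, SD). The order of Gng13 and Gnb1 rests on the length used, 773 and 4268 bases of exon. Divided by the longest transcript, 719 and 3143 bases, the mean of Gnb1 is above that of Gng13 in all genotypes.

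Ratios of counts within a library do not depend on how libraries are scaled. Gng13 had 7.72, 7.20 and 7.30 counts for every 100 Omp counts in wild-type mice 1, 2 and 3. The Gng13 ratio to Omp was 3.71, 3.79 and 4.05 in Ms4a6c knockout mice, and 8.07, 8.25 and 7.69 in Ms4a cluster knockout mice. All Ms4a6c knockout ratios were lower than all others, and 1 Ms4a cluster knockout mouse lay within the wild-type range. The mean difference from wild type was -3.56 Gng13 counts per 100 Omp counts in Ms4a6c knockout mice and 0.596 in Ms4a cluster knockout mice (two-sided exact permutation test, p = 0.2). With 3 mice against 3 this test cannot give a p below 0.1, and over the 15 ratios and shares computed the smallest Benjamini-Hochberg adjusted value was 0.375.

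The ratio of Gng13 to its partner Gnb1 did not overlap between the 3 genotypes. Its lower values in Ms4a6c knockout mice carry the difference by which Gng13 was chosen. Among single genes, 9.86% had Ms4a cluster knockout mice that did not overlap with wild type. For every 100 Gnb1 counts there were 20.0, 19.1 and 18.7 Gng13 counts in wild-type mice 1, 2 and 3. Ms4a6c knockout mice had 9.83, 10.8 and 11.3, and Ms4a cluster knockout mice had 22.3, 22.5 and 21.2. The Ms4a cluster knockout mice were thus above all wild-type mice, by 1.14-fold in the mean (exact permutation test, two-sided, p = 0.1, which is the least that n = 3 against 3 can give, adjusted value 0.375). The Gng13 ratio to Gnal was likewise 15.3 ± 0.703 per 100 counts in wild-type mice (n = 3, SD), 8.25 ± 0.584 in Ms4a6c knockout mice (n = 3, SD) and 17.5 ± 0.808 in Ms4a cluster knockout mice (n = 3, SD). For Adcy3 the Gng13 ratios averaged 29.5, 15.1 and 31.7 per 100 counts in the same order. Gnb1 against Omp differed far less, with means of 38.5 ± 0.725, 36.2 ± 1.29 and 36.3 ± 0.284 counts per 100 Omp counts in wild-type, Ms4a6c knockout and Ms4a cluster knockout mice (n = 3 each, SD). The Gnb1 ratio lay below all wild-type values in the 3 Ms4a cluster knockout mice (two-sided exact permutation test, p = 0.1, n = 3 against 3, adjusted value 0.375). Ric8b against Omp averaged 16.8 ± 0.856, 16.4 ± 0.316 and 15.6 ± 0.380 per 100 counts in the same order (n = 3 each, SD).

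**Figure D2:**
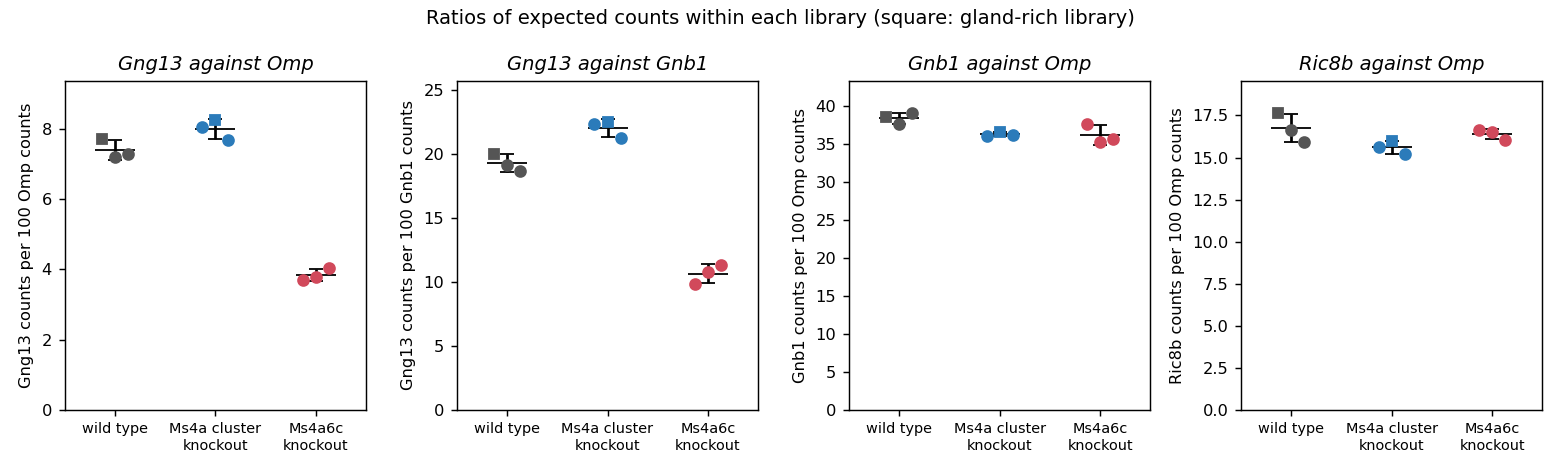
Expected counts of one gene per 100 counts of another in each of the 9 mice (vertical axes from 0), by genotype, with group mean and SD in black and gland-rich libraries as squares. Gng13 per 100 Omp counts lies at 3.71 to 4.05 in Ms4a6c knockout mice and at 7.20 to 8.25 in the other 6 mice, while Gnb1 and Ric8b stay close to one level against Omp.

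Gng13 carried most of the gamma subunit message of the tissue. Its share of the summed level per kilobase of the tested gamma subunit genes was 85.5%, 87.2% and 86.5% in wild-type mice 1, 2 and 3. In Ms4a6c knockout mice the Gng13 share was 77.4%, 79.5% and 80.3%, below every wild-type value, and it still exceeded that of all other gamma genes combined. The Ms4a cluster knockout mice had 89.2%, 83.3% and 86.9%, which spans the wild-type values (two-sided exact permutation test, p = 1.0, n = 3 against 3). The summed gamma level without Gng13 was 72.9 ± 2.79 CPM per kilobase in wild-type mice (n = 3, SD), 66.0 ± 1.503 in Ms4a6c knockout mice (n = 3, SD) and 74.5 ± 10.1 in Ms4a cluster knockout mice (n = 3, SD). Against wild type, the other gamma genes together were thus somewhat lower, not higher, in Ms4a6c knockout mice. Their sum was 70.5 to 76.0 CPM per kilobase for wild type and 64.6 to 67.6 for the Ms4a6c knockout. A low sum did not always go with low Gng13. Cluster knockout mouse 1, at 420.7 CPM the highest in Gng13, had a sum of 66.1, within the Ms4a6c knockout range. The highest wild-type sum, 76.0, and the highest cluster knockout sum, 85.7, were those of the gland-rich libraries. Among single genes, 18.3% had Ms4a6c knockout mice that did not overlap with wild type.

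Of the 10 other gamma genes tested, 0 had an adjusted p under 0.05 in either contrast by edgeR, 0 had an unadjusted p under 0.05, and DESeq2 called 0. Over all tested genes edgeR called 0.435% in Ms4a6c knockout mice and 0.0258% in Ms4a cluster knockout mice. An unadjusted p under 0.05 was reached by 10.5% and 4.93% of all genes in the same order. The log2 fold changes of these 10 gamma genes ran from -0.25 to 0.10 in Ms4a6c knockout mice, with a median of -0.15 and 1 of 10 above 0. In Ms4a cluster knockout mice they ran from -0.14 to 0.44, with a median of 0.06 and 6 of 10 above 0. Gng5, a widely expressed gamma subunit, was the next highest at 56.1 ± 7.30 CPM in wild-type mice (n = 3, SD), with a log2 fold change of -0.16 and a standard error of 0.12 in Ms4a6c knockout mice (edgeR adjusted p = 0.700). Gng10 was at 26.8 ± 1.42 CPM in wild-type mice (n = 3, SD), with -0.17 and a standard error of 0.14 (edgeR adjusted p = 0.706).

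**Figure D3:**
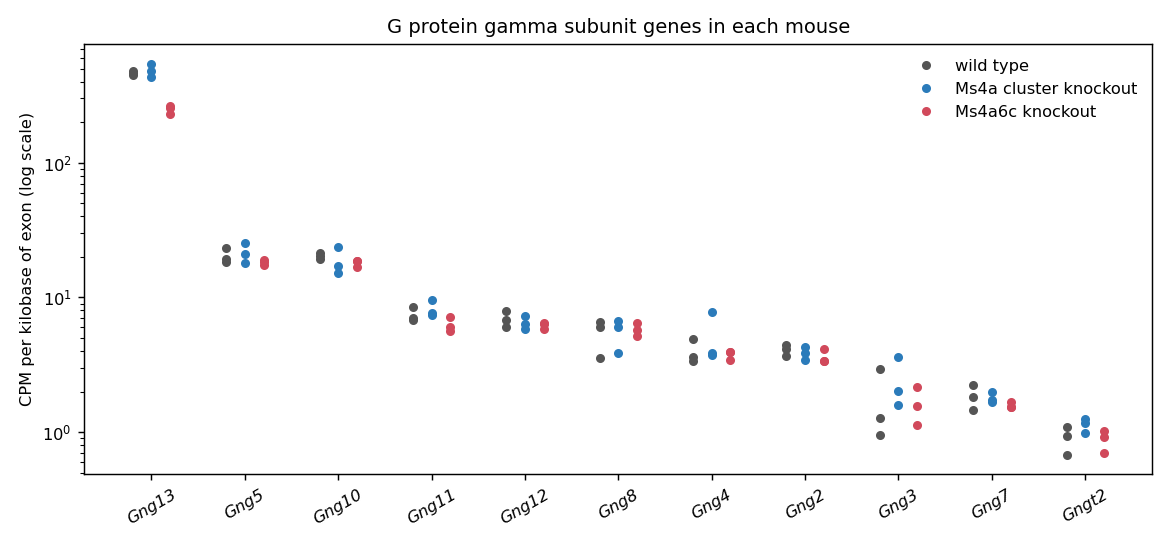
CPM per kilobase of exon (logarithmic vertical axis) of the 11 tested gamma subunit genes in each of the 9 mice, in order of mean level and colored by genotype. Gng13 stands far above the rest in all mice, and its Ms4a6c knockout points lie below the others.

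The rest of the olfactory G protein machinery was examined in lists of alpha, beta and gamma subunits, exchange factors and chaperones, brakes on G protein signaling, olfactory effectors, and proteins with PDZ domains of families known to bind Gng13. Apart from the members, the lists held 83 genes, of which 79 were tested. By edgeR 0 of the 79 were called in Ms4a6c knockout mice, where 0.435% of all tested genes were called. In Ms4a cluster knockout mice 0 of the 79 were called, where 0.0258% of all tested genes were. DESeq2 called 0 and 0, and it called 1.86% of the genes it tested in Ms4a6c knockout mice. With so few calls over all genes, 0 calls in lists of this size do not set the lists apart. An unadjusted p under 0.05 was reached by 4 of 79 in Ms4a6c knockout mice, where 10.5% of all genes reached it, and by 6 of 79 in Ms4a cluster knockout mice, where 4.93% did. The median log2 fold change of the 79 was -0.01 in Ms4a6c knockout mice and 0.02 in Ms4a cluster knockout mice, beside -0.0016 and 0.0072 over all tested genes. The lowest adjusted p among the 79 was 0.333 in the first contrast and 0.968 in the second.

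Among the alpha subunits, Gnal was the highest at 2349 ± 171.6 CPM in wild-type mice (n = 3, SD), and its log2 fold change was -0.005 with a standard error of 0.11 in Ms4a6c knockout mice and -0.14 with a standard error of 0.11 in Ms4a cluster knockout mice. Gnas, which encodes the ubiquitous stimulatory alpha subunit, was at 339.9 ± 12.4 CPM in wild-type mice (n = 3, SD) with log2 fold changes of -0.06 and 0.03 in the 2 knockouts in that order. Gnai2, an inhibitory alpha subunit, was at 108.3 ± 5.56 CPM (n = 3, SD) with -0.01 and 0.04. None of these differences reached an adjusted p under 0.05. Gnb2, the next beta gene per kilobase, was at 120.4 ± 14.6 CPM in wild-type mice (n = 3, SD) with log2 fold changes of -0.06 and 0.10, and Gnb5, the atypical beta subunit that pairs with Rgs proteins, at 27.4 ± 0.592 CPM (n = 3, SD) with -0.09 and 0.04. Gnb1 supplied 90.6%, 90.8% and 89.1% of the summed beta level per kilobase in wild-type, Ms4a6c knockout and Ms4a cluster knockout mice on average, so in contrast to the gamma side the makeup of the beta side differed little.

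Of the exchange factors and chaperones, Ric8a, the paralog of Ric8b that serves other alpha subunits, had a wild-type level of 83.2 ± 4.33 CPM (n = 3, SD) and log2 fold changes of 0.14 in Ms4a6c knockout mice (standard error 0.079, edgeR adjusted p = 0.573) and 0.10 in Ms4a cluster knockout mice. Pdcl, a co-chaperone in the assembly of beta and gamma subunits, was at 45.9 ± 4.12 CPM (n = 3, SD) with 0.04 and 0.07. Rgs5, Rgs3 and Rgs2, members of the family that speeds the shutting off of alpha subunits, were the highest brakes per kilobase. Their log2 fold changes in Ms4a6c knockout mice were -0.06 for Rgs5, -0.04 for Rgs3 and -0.14 for Rgs2, and those in Ms4a cluster knockout mice -0.19, -0.07 and 0.05 in the same order, with 0 called.

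The effectors downstream of Golf did not share the lower level of Gng13 in Ms4a6c knockout mice, with 8 of 10 log2 fold changes above 0, a median of 0.09 and 0 called. In Ms4a cluster knockout mice 1 of 10 was above 0, with a median of -0.06 and 0 called. Stoml3, a stomatin family protein of olfactory cilia, was at 2050 ± 216.3 CPM in wild-type mice (n = 3, SD) with a log2 fold change of 0.17 and a standard error of 0.12 in Ms4a6c knockout mice (edgeR adjusted p = 0.657). Cnga2 was at 952.4 ± 124.2 CPM (n = 3, SD) with -0.09 and a standard error of 0.12 (edgeR adjusted p = 0.846), and Adcy3 at 1220.0 ± 71.1 CPM (n = 3, SD) with 0.07 and a standard error of 0.11 (edgeR adjusted p = 0.854). Among the PDZ proteins Tjp1, Dlg1 and Dlg4 had log2 fold changes of 0.03, 0.13 and 0.02 in Ms4a6c knockout mice and 0.01, -0.02 and 0.04 in Ms4a cluster knockout mice, with 0 of 6 listed genes called.

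**Figure D4:**
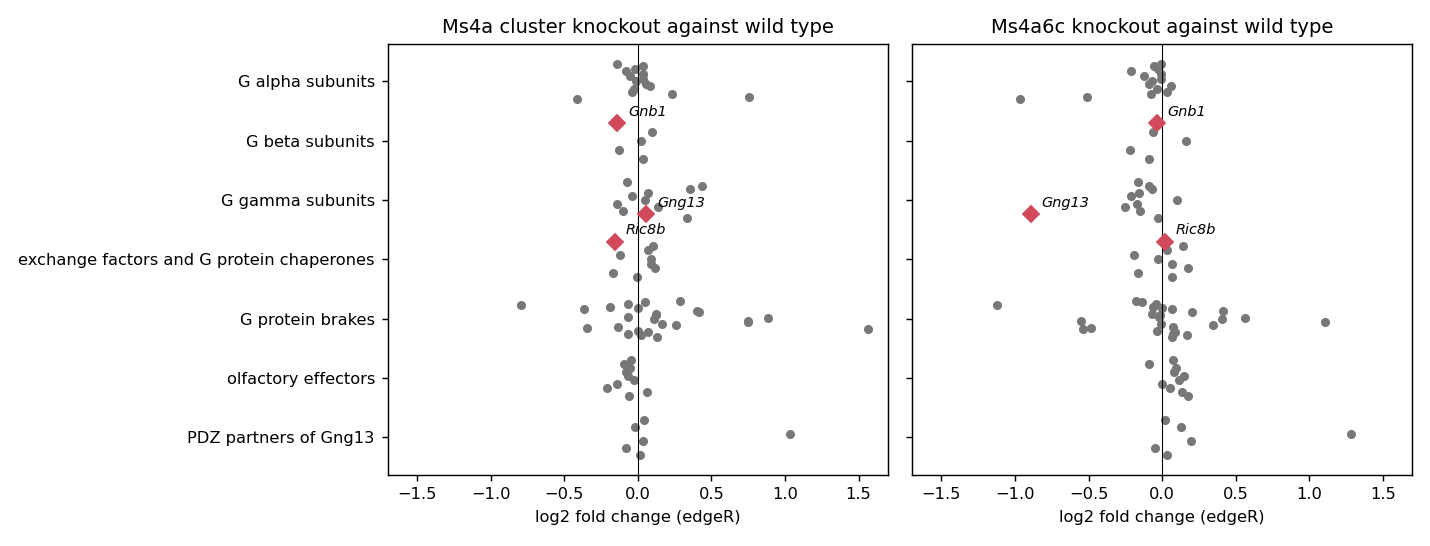
Fitted log2 fold change (horizontal axis) of each tested gene of the 7 pathway lists, one row per list, in Ms4a cluster knockout mice (left) and Ms4a6c knockout mice (right) against wild type, with Gng13, Gnb1 and Ric8b as labeled diamonds. Gng13 at -0.89 in the right panel is the gene of the gamma row that stands apart, and points farther from 0 in other rows belong to genes with adjusted p above 0.05.

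Markers of the cell types of the tissue were read beside the Gng13 values. Summed markers of mature neurons, Omp left out, ran from 10340 to 11180 CPM in wild-type mice, from 11380 to 12080 in Ms4a6c knockout mice and from 9338 to 11530 in Ms4a cluster knockout mice. Summed markers of tuft and microvillous cells, another place where Gng13 is known, ran from 25.8 to 39.1 CPM in wild-type mice, from 31.0 to 34.2 in Ms4a6c knockout mice and from 31.1 to 37.5 in Ms4a cluster knockout mice, with 0 of 10 called in either contrast. In the Ms4a6c knockout mice, where Gng13 was lower, the mature neuron sum lay above the wild-type range and the tuft cell sum within it. The mature neuron markers were uneven, with 9 of 11 log2 fold changes above 0 and 1 of 11 at an unadjusted p under 0.05. Kirrel2 was at 0.45 and Stoml3 at 0.17, but Gnal at -0.005 and Cnga2 at -0.09. Summed immature neuron markers ran from 1319 to 1812 CPM in wild-type mice and from 1422 to 1710 CPM in Ms4a6c knockout mice. Sustentacular markers ran from 15450 to 15920 CPM in wild-type, 19510 to 21100 in Ms4a6c knockout and 14970 to 17390 in Ms4a cluster knockout mice. Red blood cell markers ran from 665.5 to 912.6, 813.8 to 2346 and 802.9 to 2058 CPM in the same order. In both knockouts 5 of 5 red blood cell log2 fold changes were above 0. Glia markers ran from 702.2 to 718.7, 753.0 to 899.4 and 747.8 to 861.9 CPM in that order. The part of these in the Gng13 difference was not tested. Over 82 marker genes edgeR called 1 in Ms4a6c knockout mice, the gland gene Agr2, where 0.435% of all genes were called. Of the 10 gland and respiratory markers tested, Agr2 among them, 3 had log2 fold changes above 0 in Ms4a6c knockout mice. Their median was -1.12, so Agr2 did not share the direction of most of its list. In Ms4a cluster knockout mice edgeR called 0 of the 82, where 0.0258% of all genes were called. An unadjusted p under 0.05 was reached by 18 of the 82 in Ms4a6c knockout mice, where 10.5% of all genes reached it. Among them were 5 of 5 red blood cell and 5 of 8 sustentacular markers. Of these 5 sustentacular markers, Cyp2g1, Cyp2a5 and Cyp1a2 were higher and Ermn and Notch2 lower. Most of the sustentacular sum came from Cyp2a5 and Cyp2g1. Their means were 9171 and 4609 CPM in wild-type mice and 12200 and 5748 CPM in Ms4a6c knockout mice. In Ms4a cluster knockout mice 4 of the 82 markers reached an unadjusted p under 0.05, as did 4.93% of all genes. DESeq2, which called 1.86% of the genes it tested in Ms4a6c knockout mice, called 5 markers there, with log2 fold changes of 0.31 for Cyp2g1, 0.41 for Cyp2a5, 0.30 for Agr2, -0.41 for Ermn and -0.26 for Notch2, and 0 in Ms4a cluster knockout mice.

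Chtf18, a subunit gene of a clamp-loading complex, lies tail to tail with Gng13 on the opposite strand (chr17:25718926-25727419) and its exons cover 399 of the 480 bases of the last Gng13 exon. The deposited expected counts of Gng13 and of Chtf18 were fractional in 9 of 9 mice, but their sum was a whole number within 0.01 in 9 of 9, whereas the counts of Gnb1, Ric8b and Omp were whole in 9 of 9. The reads of the overlap were therefore divided between the 2 genes by estimation, although they lie on opposite strands. In wild-type mouse 1, for example, 4887.93 and 65.07 counts made 4953, and in Ms4a6c knockout mouse 1 4361.72 and 153.28 made 4515. Chtf18 was at 5.98 ± 1.19 CPM in wild-type mice (n = 3, SD) and 7.06 ± 0.816 CPM in Ms4a6c knockout mice (n = 3, SD), with a log2 fold change of 0.23 and a standard error of 0.19 (edgeR adjusted p = 0.721). Chtf18 held 1.64% of the counts of the pair in wild-type mice and 3.53% in Ms4a6c knockout mice, and with both genes summed the log2 fold change was -0.87.

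The genes around Gng13 were compared to see whether the lower level extended along the chromosome. On either side the 20 closest tested genes were taken, which reach from -659.5 kb to 163.7 kb relative to the Gng13 start. Of these 40, edgeR called 0 in Ms4a6c knockout mice, where 0.435% of all genes were called. It called 0 of 40 in Ms4a cluster knockout mice, where 0.0258% of all genes were called. An unadjusted p under 0.05 was reached by 9 of 40 (22.5%) in Ms4a6c knockout mice, above the 10.5% of all genes, and by 1 of 40 (2.5%) in Ms4a cluster knockout mice. The medians were 0.06 and 0.08 on the log2 scale, and 15 of the 40 neighbors were below 0 in Ms4a6c knockout mice, so they did not as a group share the direction of Gng13. Rpusd1, the next gene beyond Chtf18, chosen here for its place, was at 0.34 with a standard error of 0.12 in Ms4a6c knockout mice (edgeR adjusted p = 0.316).

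With 50 tested genes taken on either side, from -1189 kb to 1221 kb, edgeR called 3 of 100 in Ms4a6c knockout mice, where 0.435% of all genes were called, and 24 of 100 reached an unadjusted p under 0.05, which 10.5% of all genes did. In Ms4a cluster knockout mice these counts were 0 and 3 of 100. Over the whole chromosome, among 1115 tested genes of chromosome 17, 5 genes other than Gng13 (0.449%) were called in Ms4a6c knockout mice, a share near the 0.435% of all genes, and 0 in Ms4a cluster knockout mice. They are named after their values were seen, and 4 of the 5 start between -1.303 and 0.364 Mb from the Gng13 start. Rnps1, which encodes a splicing regulator, begins at -1.303 Mb from the Gng13 start and was at 77.9 ± 3.45 CPM in wild-type and 39.8 ± 0.612 CPM in Ms4a6c knockout mice (n = 3 each, SD), which is -0.97 on the log2 scale with a standard error of 0.061 (edgeR adjusted p = 4.2e-05). Eme2, which encodes a partner of a DNA repair nuclease, begins at -0.829 Mb with a log2 fold change of -0.73 (edgeR adjusted p = 0.0039). Decr2, which encodes a peroxisomal enzyme of fatty acid oxidation, begins at 0.364 Mb with -0.88 (edgeR adjusted p = 0.00286). Of the other two, Meiob begins at -0.913 Mb and was at 0.0237 CPM in wild-type and 0.866 CPM in Ms4a6c knockout mice, and Pim1 begins at 3.77 Mb with 0.59 (edgeR adjusted p = 0.0122). The log2 fold changes of Rnps1, Eme2 and Decr2 in Ms4a cluster knockout mice were 0.03, -0.11 and -0.02, and those of Pim1 and Meiob were 0.40 (standard error 0.083) and 1.25 (standard error 1.14), with 0 of the 5 called.

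**Figure D5:**
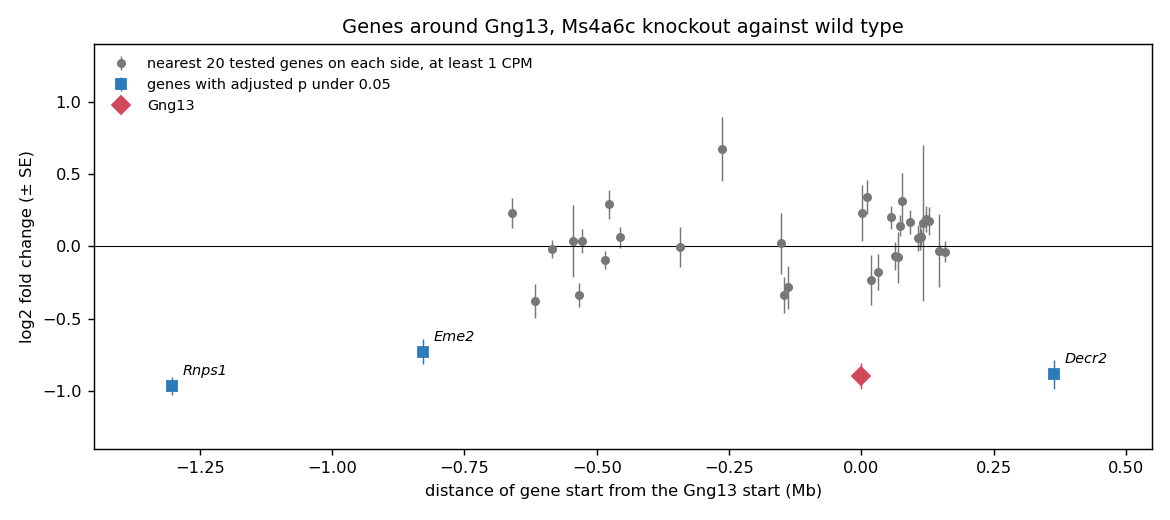
Fitted log2 fold change with its standard error in Ms4a6c knockout against wild-type mice (vertical axis), against the distance of the gene's start from the Gng13 start in megabases, for Gng13 (diamond), those of the 20 closest tested genes to either side with a mean of at least 1 CPM (circles), and Rnps1, Eme2 and Decr2 (squares). Gng13 at -0.89 lies well below its immediate neighbors, the 3 squares at -0.73 to -0.97 lie beyond them, and Meiob at 4.98 is off the scale and not drawn.

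Over the 9 mice, the genes whose log2 level was most like that of Gng13, among 10795 genes with a mean of at least 10 CPM, were Rnps1 (Pearson's r = 0.99), Dctn3 and Ahcy (0.97 each), Lamtor3 (0.97) and Chmp4b (0.97). Rnps1 is on chromosome 17 like Gng13, Ahcy and Chmp4b are on chromosome 2, Dctn3 on chromosome 4 and Lamtor3 on chromosome 3. Ahcy, which encodes the enzyme that hydrolyzes S-adenosylhomocysteine, had a log2 fold change of -1.64 with a standard error of 0.074 in Ms4a6c knockout mice and of -0.03 in Ms4a cluster knockout mice. This likeness rests on the difference between Ms4a6c knockout mice and the other 6. After each group's mean was removed, the genes most like Gng13 were Mcm7, Wdsub1, Tpm3, Spef1 and Krt17, with r from 0.97 to 0.99, and 0 of the first 5 were among them. Over these deviations, which hold fewer free values than mice, Omp ranked 95, Ric8b 179 and Gnb1 358 of the 10795 genes.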

How the data were processed

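RNA of the main olfactory epithelium of 9 mice, 3 per genotype, was sequenced from directional poly-A libraries. Per the methods, the authors aligned paired reads with STAR 2.6.1 and quantified GENCODE M25 genes (build GRCm38) with RSEM 1.3.1 in the DolphinNext pipeline. They deposited expected counts, the estimated counts of reads per gene, without normalization, and ran DESeq2 1.30.1 in R 4.0.0 or later themselves. Reads carry no molecular identifiers.

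Expected counts were rounded. A gene needed a total of 10 counts across the 9 mice to be tested. After TMM scaling, all 9 mice entered a single model in edgeR 4.0.16 (R 4.3.3), whose quasi-likelihood p-values were Benjamini-Hochberg adjusted and called at 0.05. Standard errors are the log2 fold change over the square root of F, and 95% intervals use the test's degrees of freedom. Log2 levels for correlations used a pseudocount of 0.5. Permutation tests used scipy 1.17.1. DESeq2 1.42.0 was an alternative. GENCODE M21, also on GRCm38, gave coordinates and exon lengths, and 99.6% of the deposited genes matched it. In simulated counts for Ms4a6c knockout against wild-type mice over 23225 genes, 77 of 100 genes with a 2-fold change and 100 of 100 with a 4-fold change were found. Another 8 genes, given no change, were also called. The changes were planted only in genes well above the 10-count floor, so these rates do not cover genes with few counts. The simulated spread followed the trend with level, not the spread of each gene.

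The members, lists and tests were chosen with earlier results of these data known. Named genes are the members, called list genes, the 3 highest genes per kilobase of each pathway list, called neighbors and the 5 genes most like Gng13; others are identified. Alternatives were DESeq2's size factors, plain library size, other filters, the 2 genotypes alone, the replicate block, leaving out each mouse, a stricter threshold and a wider window. Gng13 and Chtf18 summed, and the fits and correlations without the 2 gland-rich libraries, were chosen after seeing the data.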

Additional observations from a re-analysis of the deposited data

Results flagged for a closer look

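Agr2, a gland and airway gene of the marker lists, differed between the knockouts. It was at 205.0 ± 4.51 CPM in wild-type, 253.8 ± 5.53 CPM in Ms4a6c knockout and 204.2 ± 4.45 CPM in Ms4a cluster knockout mice (n = 3 each, SD). The log2 difference of Ms4a cluster minus Ms4a6c knockout mice was -0.31 with a standard error of 0.052 (edgeR adjusted p = 0.0315), and all 3 Ms4a6c knockout mice lay above the other 6. Most of its list did not share this direction. Against wild type, 3 of 10 gland and respiratory markers were above 0 in Ms4a6c knockout mice, with a median log2 fold change of -1.12.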

How the results depend on the processing

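The lower Gng13 level in Ms4a6c knockout mice kept its direction under all alternatives run, from -0.92 to -0.72 on the log2 scale and from -0.93 to -0.84 when 1 mouse was left out. With plain library size, which shifts the median of all genes to 0.18, it was -0.72, and Gnb1 turned to 0.13, Ric8b went to 0.20 and Omp to 0.21. Leaving out 1 mouse gave Ric8b -0.0181 to 0.0605 and Omp -0.0044 to 0.0917 in that contrast, and Omp was -0.0023 without the gland-rich libraries. In Ms4a cluster knockout mice, leaving out 1 mouse gave Gng13 -0.0392 to 0.13 and Omp -0.14 to 0.0407, and the Gng13 share of gamma subunits -1.30 to 1.61 percentage points. The lower Gng13 share in Ms4a6c knockout mice was -12.3 points without division by length, against -7.36. Marker genes called in Ms4a6c knockout mice, 1 as reported, were 0 with plain library size, the 2 genotypes alone, the replicate block or the stricter threshold, 0 to 2 with 1 mouse left out, 5 by DESeq2 and 8 without the gland-rich libraries; 2 came without wild-type mouse 1. Called neighbors, 0 as reported, were 1 without the gland-rich libraries and 3 with 50 genes on each side. The cause of these shifts was not tested. The labels name no pairing by mouse number, and none was evident, with deviations of same-numbered mice correlated at -0.58 to 0.0477. The gland-rich libraries bear on these correlations, with 0.52 between gland-rich Ms4a cluster knockout mouse 2 and wild-type mouse 1, so they cannot exclude a pairing. With the replicate number as a block, Gng13 was at -0.89 and 0.05 in Ms4a6c and Ms4a cluster knockout mice. With 3 mice per group, small differences of the partners were not detectable.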
